A study of Mus musculus with 246 samples.

Results

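The transcripts of 10 serotonin receptor genes (Htr1a, Htr1b, Htr1f, Htr2a, Htr2c, Htr3a, Htr4, Htr5a, Htr6 and Htr7) were followed through 6 brain regions of the same mice. The genes were taken by name from a table of 56691 genes, and the names were chosen with earlier results of these data known. Poly-A RNA was sequenced from tissue punches of 41 adult male mice of the outbred CD1 stock, 1 library per region and mouse. The regions were the medial prefrontal cortex (mPFC), the anterior cingulate cortex (ACC), the nucleus accumbens shell (Nacc), the basolateral amygdala (BLA), the dorsomedial thalamus (DMT) and the ventral hippocampus (vHipp). Punches from both hemispheres were pooled.

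The mice came from 3 rearing conditions. Ctrl_Veh mice were reared with normal nesting material by dams that had been injected with an empty phospholipid gel, the vehicle. ELA_Veh mice were exposed as pups to early life adversity (ELA), a period of limited bedding and nesting material, and their dams received the vehicle. ELA_SAFit2 mice had the same adversity, and the gel of their dams released SAFit2, a selective inhibitor of the stress-related chaperone FKBP51 that reached the pups through the milk. No group combined control rearing with SAFit2, so an effect of SAFit2 alone cannot be told apart from its effect after adversity. Brains were taken either without a preceding encounter (NoInteraction, 7 mice per condition) or after 10 minutes with an unfamiliar mouse (SocialInteraction, 6 Ctrl_Veh, 7 ELA_Veh and 7 ELA_SAFit2 mice). Different mice made up the 2 sets, and the labels do not give their litters.

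Serotonin reaches all of these regions through axons of the raphe nuclei of the brainstem, and what it does there depends on the receptors of the receiving cells. Htr1a, Htr1b, Htr1f and Htr5a encode receptors that couple to inhibitory Gi/o proteins and lower cyclic AMP, Htr2a and Htr2c encode receptors that couple to Gq/11 and phospholipase C, and Htr4, Htr6 and Htr7 encode receptors that couple to Gs and raise cyclic AMP. Htr3a encodes a subunit of the only serotonin receptor that is an ion channel. Because many receptors act on axon terminals far from the cell body, the region that holds a transcript need not be the region where the protein acts.

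Levels are given as CPM, the share of a gene in the estimated reads of a library, in parts per 1e6, after scaling with TMM, a normalization that corrects for a few strongly expressed genes. Library totals lay between 20804247 and 43351424 with a median of 28844788. At this depth 1 of 60 combinations of gene and region held libraries without a read, which was Htr3a in the DMT, with 0 reads in 2 of 41 libraries and 153 reads in all. Whether a library came from its labelled mouse was tested on 60 genes that differ between individuals. This matched 12 Nacc libraries (6 of them NoInteraction) and 1 ACC library (SocialInteraction ELA_SAFit2) to another mouse than the label gives. For each of the 12 Nacc libraries that mouse was of another set, another condition or both. If these matches hold, the labelled Nacc groups are mixed in set and in condition. The ACC library was less clear, with a correlation of 0.447 to its labelled mouse and 0.611 to the best match. The Nacc libraries had at most 0.310 and at least 0.670. All libraries were kept under their labels, and the region comparison, the contrasts within these 2 regions and the marker correlations of both were computed again without the mismatched libraries. In 28 mice every library matched its label. Punches also differed in the marker RNA of tissues and cell types that they held. Summed markers of choroid plexus, the epithelium that makes cerebrospinal fluid, ran from 25.9 to 5939 CPM in the BLA libraries. Summed markers of striatal projection neurons ran from 796 to 5002 CPM in the BLA and from 1854 to 6352.1 CPM in the Nacc, and a single SocialInteraction ELA_Veh mouse had 1883 CPM in its mPFC and 1837 CPM in its ACC library, beside medians of 386 and 422 CPM. Thalamic markers summed to a median of 2641 CPM in the DMT and to at most 152 CPM in any other region. The amygdala marker Rspo2 averaged 17.7 CPM in the BLA, under its 39.3 CPM in the ACC, so it does not separate the BLA from cortex.

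Every receptor differed between regions. Each of the 10 genes passed an F test over the 6 regions, made with edgeR's quasi-likelihood test and the mouse as a block, at an adjusted p of 9.02e-93 or smaller (Benjamini-Hochberg over 17381 genes). So did 97.6% of all genes tested, so a regional difference in itself is common to nearly the whole transcriptome, and the order and size of the levels carry the description that follows. The ratio of the highest to the lowest regional mean was 48.5 for Htr3a, 45.5 for Htr1a, 16.0 for Htr2a, 10.1 for Htr4, 9.66 for Htr1b, 9.25 for Htr1f, 7.90 for Htr7, 6.91 for Htr6, 5.96 for Htr2c and 1.95 for Htr5a. The DMT was the region with the lowest mean for 7 of the 10 genes and with the highest for 1, Htr7.

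**Figure D1:**
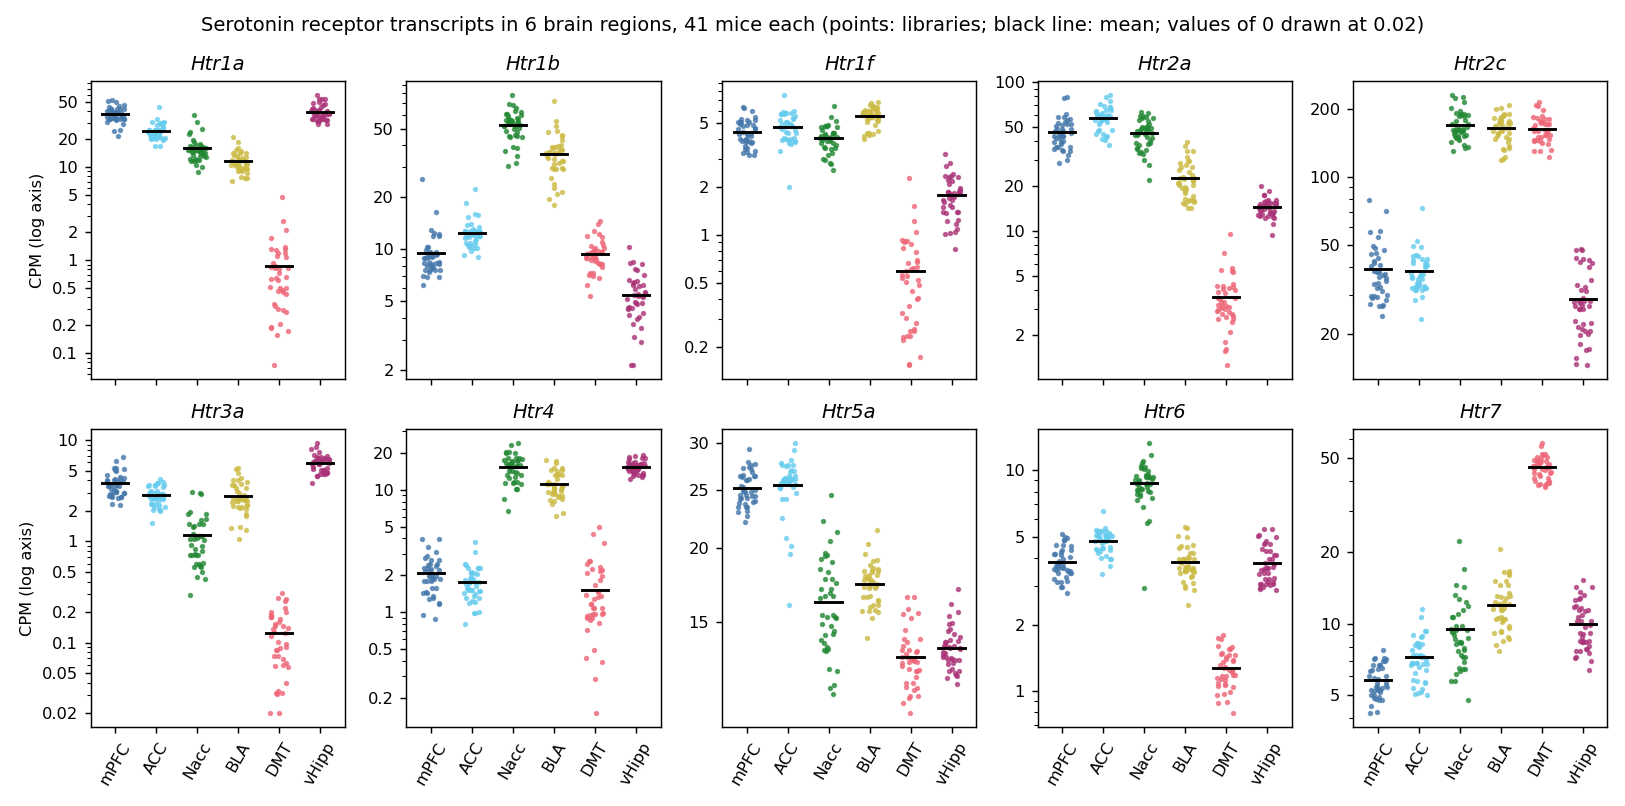
CPM of each receptor gene (log axis, own scale per panel) in 41 libraries of each of 6 regions, with points for libraries and black lines for means. Htr7 in the DMT, from 37.7 to 58.1 CPM, stands clear of every other region, while Htr1a, Htr2a, Htr3a and Htr6 are lowest in the DMT in all 41 mice.

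Among the Gi/o-coupled receptors, Htr1a (ENSMUSG00000021721, GRCm38 chromosome 13, 105443639 to 105448122, plus strand) was a cortical and hippocampal transcript. This receptor restrains raphe neurons from within and hyperpolarizes pyramidal cells in forebrain. Its lowest, median and highest levels were 29.2, 37.5 and 60.3 CPM in the vHipp and 21.6, 36.9 and 52.9 CPM in the mPFC, and these regions were not told apart (log2 difference of mPFC against vHipp -0.08, SE 0.0737, adjusted p = 0.299). The ACC followed with a mean of 24.5 CPM, the Nacc with 16.0 and the BLA with 11.5. In the DMT the values were 0.0744, 0.638 and 4.74 CPM, below every other region in 41 of 41 mice. The log2 difference of the DMT from the mean of the other 5 regions was -4.71 (SE 0.103, adjusted p = 1.02e-107).

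Htr1b (ENSMUSG00000049511, chromosome 9, 81628291 to 81633828, minus strand), which encodes a receptor of axon terminals, had its highest levels in the Nacc. They were 30.3, 53.6 and 78.8 CPM there (lowest, median, highest) and 18.1, 36.1 and 72.2 CPM in the BLA. These ranges overlapped, but the Nacc was the highest region in 33 of 41 mice, and in 23 of the 28 whose libraries all matched. The ACC averaged 12.499 CPM, the mPFC 9.56, the DMT 9.39 and the vHipp 5.45. The Nacc exceeded the other 5 regions by 2.18 log2 units (SE 0.0449, adjusted p = 1.85e-111) and the BLA by 1.49 (SE 0.0475, adjusted p = 5.46e-78), while the mPFC and DMT were not told apart (log2 difference 0.01, SE 0.0737). The highest mPFC and ACC values of Htr1b, 25.5 and 22.3 CPM, came from the SocialInteraction ELA_Veh mouse whose 2 cortical libraries held the most striatal marker RNA.

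Htr1f (ENSMUSG00000050783, chromosome 16, 64924729 to 65105854, minus strand), a receptor that triptans act on, was low and evenly spread over 4 regions. Its means were 5.55 CPM in the BLA, 4.76 in the ACC, 4.42 in the mPFC and 4.06 in the Nacc, against 1.77 in the vHipp and 0.5997 in the DMT. The BLA was the highest region in 29 of 41 mice and the DMT the lowest in 39. Htr5a (ENSMUSG00000039106, chromosome 5, 27842149 to 27855088, plus strand), a less studied receptor of forebrain, was the most even of the 10. It averaged 25.6 ± 2.57 CPM (SD, n = 41 mice) in the ACC, 25.2 ± 1.64 in the mPFC, 17.4 ± 1.43 in the BLA, 16.3 ± 3.02 in the Nacc, 13.6 ± 1.13 in the vHipp and 13.1 ± 1.48 in the DMT. None of its 15 pairs of regions differed by more than 1 log2 unit. The mPFC and ACC were not told apart (log2 difference -0.02, SE 0.0322), nor were the DMT and vHipp (log2 difference -0.05, SE 0.0347).

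The Gq-coupled receptors were arranged in different ways. Htr2a (ENSMUSG00000034997, chromosome 14, 74640840 to 74709494, plus strand), the receptor through which classical psychedelics act, had 37.9, 58.0 and 82.0 CPM in the ACC, 28.6, 44.3 and 79.4 in the mPFC and 22.1, 45.02 and 62.3 in the Nacc (lowest, median, highest). The ACC was the highest region in 32 of 41 mice, and the mPFC and Nacc were not told apart (log2 difference 0.02, SE 0.0646). The BLA averaged 22.4 CPM and the vHipp 14.4. The DMT had 1.25, 3.16 and 9.52 CPM, lowest in 41 of 41 mice, with a log2 difference from the other regions of -3.20 (SE 0.0719, adjusted p = 1.45e-105).

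Htr2c (ENSMUSG00000041380, chromosome X, 146962513 to 147197277, plus strand), whose RNA is edited by ADAR enzymes and which choroid plexus expresses strongly, fell into 2 levels. The Nacc (131, 163 and 233 CPM), the BLA (119, 168 and 208 CPM) and the DMT (123, 162 and 215 CPM) shared the upper level, and the largest difference among the 3 was 0.06 log2 units (SE 0.0661, adjusted p = 0.397). The mPFC averaged 39.1 CPM, the ACC 38.1 and the vHipp 28.6. The highest library of the lower 3 regions, at 79.01 CPM in the mPFC, stayed under the lowest of the upper 3, at 119 CPM in the BLA. That mPFC library and the highest ACC library, at 72.5 CPM, were again those of the mouse with the most striatal marker RNA in its cortex.

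The ion channel subunit Htr3a (ENSMUSG00000032269, chromosome 9, 48899213 to 48911099, minus strand), which in cortex marks interneurons born in the caudal ganglionic eminence, averaged 5.96 CPM in the vHipp, 3.74 in the mPFC, 2.84 and 2.82 in the ACC and BLA, 1.16 in the Nacc and 0.123 in the DMT. The vHipp was highest in 39 of 41 mice and the DMT lowest in 41. The vHipp exceeded the other regions by 2.14 log2 units (SE 0.0678, adjusted p = 6.98e-80) and the log2 difference of the DMT was -4.503 (SE 0.142). The DMT mean rests on a mean of 3.73 reads per library, so its distance from the other regions is the least precise of the 10 genes.

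The Gs-coupled receptors each had their own pattern. Htr4 (ENSMUSG00000026322, chromosome 18, 62324204 to 62496577, plus strand), a receptor of striatal and hippocampal neurons, averaged 15.4 ± 1.75 CPM (SD, n = 41 mice) in the vHipp, 15.4 ± 3.81 in the Nacc and 11.2 ± 2.79 in the BLA. It was lower elsewhere, at 2.07 ± 0.719 in the mPFC, 1.75 ± 0.572 in the ACC and 1.53 ± 1.03 in the DMT. The vHipp and Nacc were not told apart (log2 difference of Nacc against vHipp -0.02, SE 0.0743). Htr6 (ENSMUSG00000028747, chromosome 4, 139061108 to 139075570, minus strand), known for its density in striatum, averaged 8.76 CPM in the Nacc and was highest there in 40 of 41 mice, and in 28 of the 28 whose libraries all matched. The ACC had 4.77 CPM, and the mPFC, BLA and vHipp, at 3.85, 3.82 and 3.81 CPM, were not told apart (largest log2 difference 0.02, SE 0.0561). In the DMT Htr6 averaged 1.27 CPM, lowest in 41 of 41 mice.

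Htr7 (ENSMUSG00000024798, chromosome 19, 35958734 to 36057507, minus strand), a receptor long mapped to midline and medial thalamus, was the transcript with the clearest regional peak. Its lowest, median and highest levels in the DMT were 37.7, 45.9 and 58.1 CPM. No library of another region reached this range, the highest being 22.3 CPM in the Nacc and 20.6 CPM in the BLA. The BLA averaged 12.02 CPM, the vHipp 10.0, the Nacc 9.48, the ACC 7.22 and the mPFC 5.78. The DMT exceeded the other 5 regions by 2.42 log2 units (SE 0.0403, adjusted p = 8.44e-130), and it was the highest region in 41 of 41 mice.

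Counted over the genes, 54 of 60 contrasts of a region with the mean of the other 5 passed the test, beside 78.3% of the same contrasts over all genes. A second rule also asked for a log2 fold change beyond 1. In the mPFC, Htr1a, Htr3a and Htr2a were above it (3 of 10, with 3.34% of all genes) and Htr4, Htr2c and Htr7 below (3 of 10, with 4%). In the ACC, Htr2a and Htr1a were above (2 of 10, with 3.45%) and Htr4 and Htr2c below (2 of 10, with 4.44%). In the Nacc, Htr1b, Htr4, Htr6, Htr2c and Htr2a were above (5 of 10, with 4.48%) and 0 of 10 below (with 4.79%). In the BLA, Htr1b, Htr4, Htr2c and Htr1f were above (4 of 10, with 6.63%) and 0 of 10 below (with 1.78%). In the DMT, Htr7 and Htr2c were above (2 of 10, with 8.79%) and Htr1a, Htr3a, Htr2a, Htr1f, Htr4 and Htr6 below (6 of 10, with 9.56%). In the vHipp, Htr3a, Htr4 and Htr1a were above (3 of 10, with 5.33%) and Htr1b and Htr2c below (2 of 10, with 5.60%). Over pairs of regions, 131 of 150 tests passed (76.8% over all genes) and 82 also exceeded 1 log2 unit (14.3%). When the 12 mismatched Nacc libraries were left out, the fit called the same 185 of 210 contrasts (any pair or any region against the rest) and moved no log2 fold change by more than 0.0915. Leaving out the mismatched ACC library kept the same 185 and moved none by more than 0.01504. The library names of the labels run region by region, so region and order of the libraries cannot be told apart.

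To compare the genes with each other, CPM was divided by the exon length of each gene in kb. The summed level of the 10 receptors per kb was 55.9 ± 2.91 in the Nacc (SD, n = 41 mice), 46.0 ± 2.31 in the BLA, 37.4 ± 3.06 in the DMT, 34.9 ± 2.80 in the ACC, 34.7 ± 2.68 in the mPFC and 29.4 ± 2.61 in the vHipp. The leading receptor changed with the region. Htr2c made up 46.8% of the sum in the DMT, 38.5% in the BLA and 32.8% in the Nacc. In the DMT it was followed by Htr7 with 36.0%, so 2 receptors held most of that region's sum. In the Nacc and BLA Htr1b came second with 19.9% and 16.4%. Htr2a led in the ACC with 29.1% and nearly equalled Htr1a in the mPFC, at 23.5% beside 23.9%. Htr1a led in the vHipp with 29.8%, where Htr4, Htr2c, Htr7 and Htr3a each held between 9.73% and 10.8%. These are shares of transcripts and not of receptor protein, and in bulk tissue fewer cells of a type and less RNA per cell cannot be told apart.

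**Figure D2:**
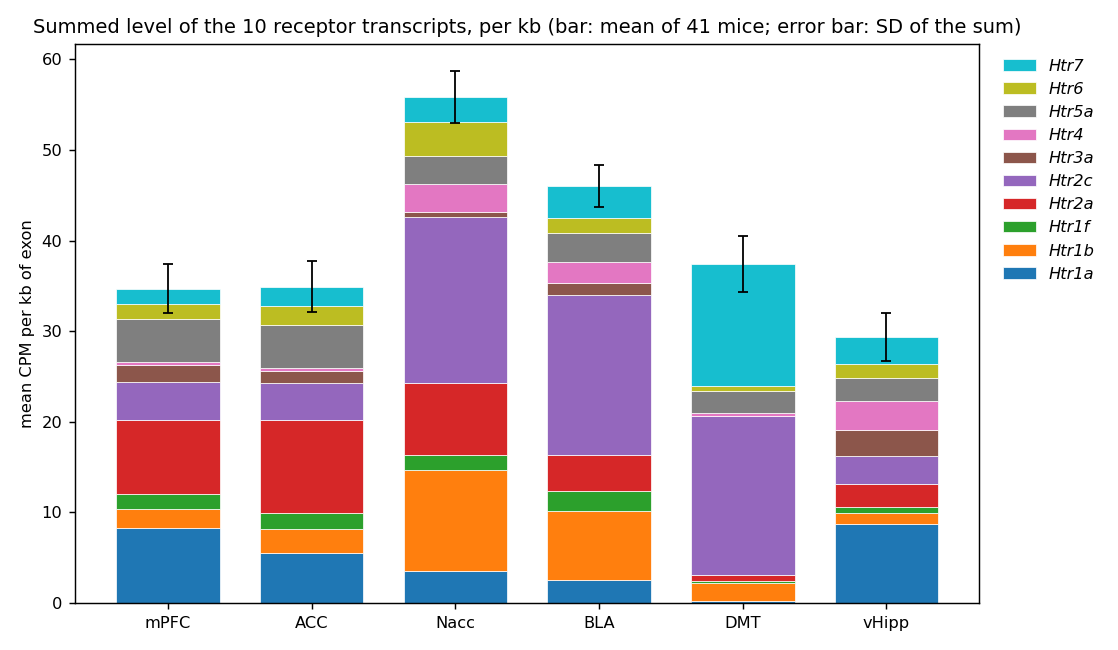
Mean CPM per kb of exon for the 10 receptor genes, stacked for each region (bars: mean of 41 mice, error bars: SD of the sum). The Nacc has the tallest bar at 55.9 and the vHipp the lowest at 29.4, and Htr2c fills the widest part in the Nacc, BLA and DMT.

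Within a region, several receptors moved with marker genes of a tissue or cell type in the same library. Correlations of log2(CPM + 0.1) of each gene with the mean standardized level of 5 marker lists were computed over the 41 mice of each region, 300 in all, with a permutation test of 100000 resamples and Benjamini-Hochberg adjustment over the 300. An adjusted p under 0.05 was reached by 94 (31.3%), of which 46 were positive, and the smallest absolute r among them was 0.377. Over all genes tested, with the genes of each list left out, 19.9% of the correlations were at or past that r. Both shares are descriptions, since the correlations of a region rest on the same 41 libraries. Without the 2 libraries farthest from the median of the list, 69 of the 94 still passed. In the NoInteraction mice alone 57 passed, and in the SocialInteraction mice alone 28, and 1 of the 94 changed its sign there.

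In the BLA, Htr2c rose with the choroid plexus list (Pearson's r = 0.84, Spearman's rho = 0.76, permutation p = 1e-05 for both, the smallest that the resamples can give, adjusted p = 0.000176 for r and 0.000187 for rho). Its r was 0.79 without the 2 farthest libraries, 0.76 in the NoInteraction mice and 0.90 in the SocialInteraction mice. The choroid plexus sums left a gap around 500 CPM, and r was 0.69 in the 32 libraries above it and 0.63 in the 9 below (adjusted permutation p = 0.306). Htr1b went the other way with this list (r = -0.75, rho = -0.84, the same p-values), with -0.74 without the 2 farthest libraries, -0.76 and -0.80 in the 2 sets, -0.60 above the gap and -0.50 below it (adjusted permutation p = 0.488). The gap was chosen after the values were seen.

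Striatal projection neuron markers passed the threshold with 6 of the 10 receptors in the BLA, 5 of them with the smallest possible permutation p for r and rho. Htr1b rose with them (r = 0.89, rho = 0.85, without the 2 farthest 0.85, sets 0.89 and 0.89), as did Htr2a (r = 0.75, rho = 0.74, without the 2 farthest 0.71, sets 0.69 and 0.81) and Htr6 (r = 0.73, rho = 0.65, without the 2 farthest 0.67, sets 0.73 and 0.75). Htr3a fell with them (r = -0.81, rho = -0.79, without the 2 farthest -0.75, sets -0.86 and -0.75). Htr2c also fell (r = -0.72, rho = -0.65, without the 2 farthest -0.69, sets -0.71 and -0.74). Htr4 rose (r = 0.52, permutation p = 0.00046, rho = 0.44, permutation p = 0.00423, without the 2 farthest 0.53), with 0.34 in the NoInteraction mice (adjusted permutation p = 0.319) and 0.74 in the SocialInteraction mice. Of the 5 receptors past the fold rule in the Nacc, 4 thus rose with these markers in the BLA and Htr2c fell. In the Nacc itself the labels of 12 libraries are in doubt, all of them across sets, conditions or both. Receptor and markers come from the same library, so r over all 41 Nacc libraries does not depend on these labels. The values within a set do depend on them. Values are therefore also given for the 29 libraries that match their mouse, which are fewer. Htr1b rose with the list (r = 0.77, rho = 0.72, without the 2 farthest 0.79, sets 0.83 and 0.64), with 0.87 in the matching libraries. Htr6 rose too (r = 0.85, rho = 0.71, without the 2 farthest 0.69), with 0.90 in the NoInteraction mice and 0.50 in the SocialInteraction mice (adjusted permutation p = 0.128). In the matching libraries it was 0.80, with 0.88 and 0.39 in the sets (adjusted permutation p = 0.580 for the second). Htr1a fell (r = -0.62, permutation p = 6e-05, rho = -0.70, without the 2 farthest -0.66), with -0.78 and, in the SocialInteraction mice, -0.37 (adjusted permutation p = 0.329). In the matching libraries, which are fewer, Htr1a did not pass by r (-0.44, adjusted permutation p = 0.0547) but did by rho (-0.58, adjusted permutation p = 0.00769). Htr7 passed in all 41 Nacc libraries by r (-0.45, adjusted permutation p = 0.0162) and not by rho (-0.29, adjusted permutation p = 0.171). Its r was 0.05 in the SocialInteraction mice and -0.12 in the matching libraries (adjusted permutation p = 0.662). Whether differences in the tissue of the punches play a part in the regional levels was not tested.

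In the DMT, Htr4 rose with the habenula list (r = 0.84, rho = 0.87, both at the smallest permutation p, without the 2 farthest 0.80, sets 0.87 and 0.82). The sum of that list ran from 19.9 to 643 CPM, while Htr4 ran from 0.149 to 4.97 CPM. Htr5a followed the list (r = 0.72, rho = 0.68, both at the smallest permutation p, without the 2 farthest 0.66, sets 0.70 and 0.74), and so did Htr2a (r = 0.66, rho = 0.64, permutation p = 2e-05 for both, without the 2 farthest 0.63, sets 0.64 and 0.70). Htr7, the receptor with its peak in this region, had r = -0.38 (permutation p = 0.0145, adjusted p = 0.0466, rho = -0.39, permutation p = 0.0122, adjusted p = 0.0470), with -0.46 without the 2 farthest. It did not pass in either set alone, at -0.48 (adjusted permutation p = 0.107) and -0.28. The list holds Nwd2, which cortex also expresses.

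Htr3a rose with the list of interneurons of the caudal ganglionic eminence (CGE) in the mPFC (r = 0.73, rho = 0.72, both at the smallest permutation p, without the 2 farthest 0.67, sets 0.82 and 0.73) and in the ACC (r = 0.64, permutation p = 3e-05, rho = 0.61, permutation p = 4e-05, without the 2 farthest 0.51, sets 0.66 and 0.73, without the mismatched ACC library 0.64). Htr2a fell with the oligodendrocyte list in the ACC (r = -0.64, permutation p = 5e-05, rho = -0.57, permutation p = 0.00018, without the 2 farthest -0.55), with -0.74 in the NoInteraction mice and -0.55 in the SocialInteraction mice (adjusted permutation p = 0.0858). In the mPFC it did so with r = -0.50 (permutation p = 0.00075, rho = -0.43, permutation p = 0.0048, without the 2 farthest -0.43), with -0.59 and -0.40 in the sets, the second not past the threshold (adjusted permutation p = 0.288).

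**Figure D3:**
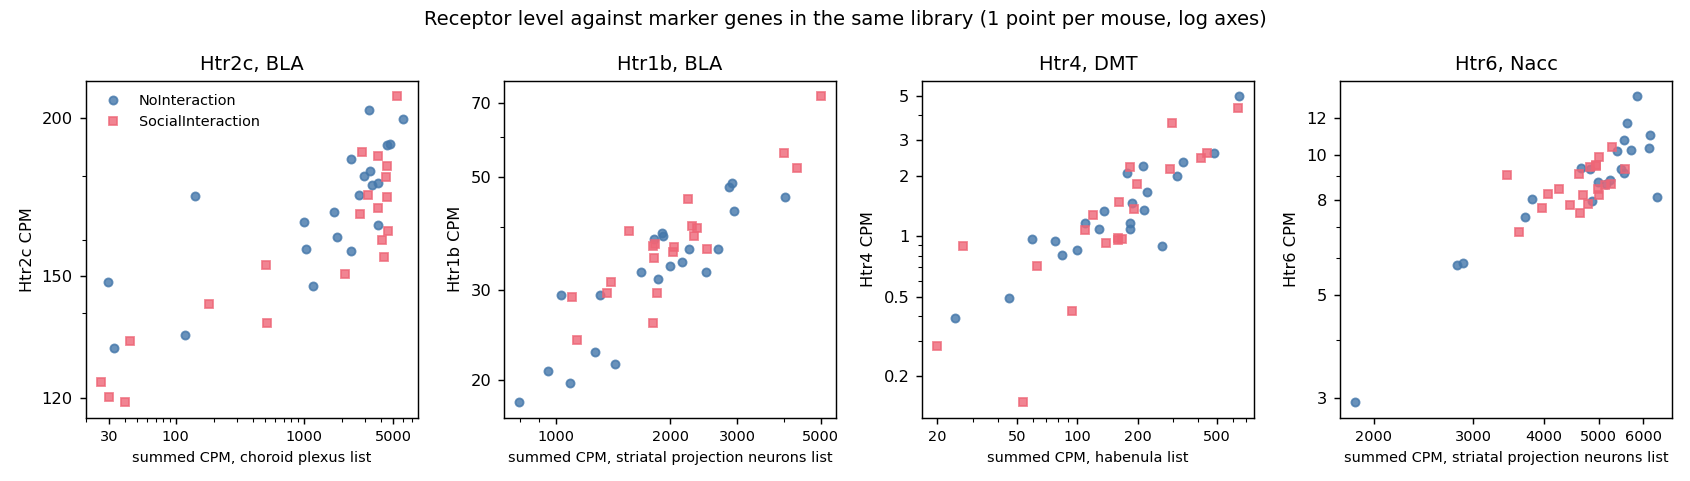
CPM of 4 receptor genes against the summed CPM of a marker list in the same library (1 point per mouse, log axes, colours for the 2 sets). Htr2c climbs with choroid plexus markers in the BLA, Htr1b with striatal markers in the BLA, Htr4 with habenula markers in the DMT and Htr6 with striatal markers in the Nacc.

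The response to 10 minutes with an unfamiliar mouse was taken as the difference of SocialInteraction and NoInteraction mice, averaged over the 3 conditions within a region. By edgeR's quasi-likelihood test, 2 of 60 tests of a receptor in a region passed an adjusted p of 0.05, beside 2.64% of all tests over genes and regions. They were a lower Htr7 in the BLA and a higher Htr2a in the vHipp. With DESeq2 in place of edgeR, 4 of 60 passed, beside 3.58% of all its tests, the same 2 with Htr4 in the vHipp (adjusted p = 0.0280) and Htr1a in the ACC (adjusted p = 0.0480), whose edgeR values were 0.0655 and 0.0771. Another 53 did not pass, and DESeq2 gave no adjusted p to the rest, all in the DMT. The shares over all genes count tests without an adjusted p as not passed.

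Htr7 in the BLA had a lowest, median and highest value of 9.36, 12.4 and 20.6 CPM in the 21 NoInteraction mice and of 7.72, 10.4 and 14.6 CPM in the 20 SocialInteraction mice. The ranges overlapped and the median was lower after the encounter. The difference was -0.32 on the log2 scale (SE 0.0706, adjusted p = 0.0142, where 0.669% of the genes tested in the BLA fell). Within conditions it was -0.43 in Ctrl_Veh (adjusted p = 0.397), -0.52 in ELA_Veh (0.168) and -0.02 in ELA_SAFit2 (0.982), none of which passed alone. Choroid plexus markers in the BLA had medians of 2350 CPM without and 3039 CPM with the encounter, striatal markers 1897 and 1943 CPM. The level of Htr7 over the 41 BLA libraries had r = -0.20 with the choroid plexus list (adjusted permutation p = 0.352) and -0.03 with the striatal list (0.917). The part of these differences in the response was not tested.

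Htr2a in the vHipp had 9.37, 13.2 and 16.1 CPM in the NoInteraction mice and 12.98, 15.4 and 19.9 CPM in the SocialInteraction mice. The lowest SocialInteraction value thus lay close to the NoInteraction median. The difference was 0.21 on the log2 scale (SE 0.0474, adjusted p = 0.0145, where 0.821% of the genes tested in the vHipp rose). It was 0.17 in Ctrl_Veh (adjusted p = 0.843), 0.31 in ELA_Veh (0.273) and 0.16 in ELA_SAFit2 (0.584), with the same sign in each. Hippocampal markers had medians of 511 and 547 CPM in the 2 sets and choroid plexus markers 23.2 and 23.8 CPM, and their part was not tested.

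Within single conditions edgeR passed 0 of 180 tests (0.0891% over all genes, 15 of the 180 with an unadjusted p under 0.05), and DESeq2 passed 1, Htr7 in the BLA of ELA_Veh mice (adjusted p = 0.0352, beside 0.295% of all its tests). Of the others, 171 did not pass with DESeq2 and the rest had no adjusted p. With the regions of each mouse summed, 0 of 10 genes passed (8.56% of all genes did, 2 of the 10 had an unadjusted p under 0.05, and DESeq2 passed 0). When the Nacc was left out of the sums, edgeR again called 0 of 10, with 1 at an unadjusted p under 0.05. Nacc libraries gave 0 of the 10 receptors below 0.05 before adjustment with either tool, and again 0 with edgeR when the mismatched Nacc libraries were left out. Over all genes, edgeR also called 0 in the Nacc after adjustment with all libraries kept. The absence of calls there is therefore not particular to the receptors.

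**Figure D4:**
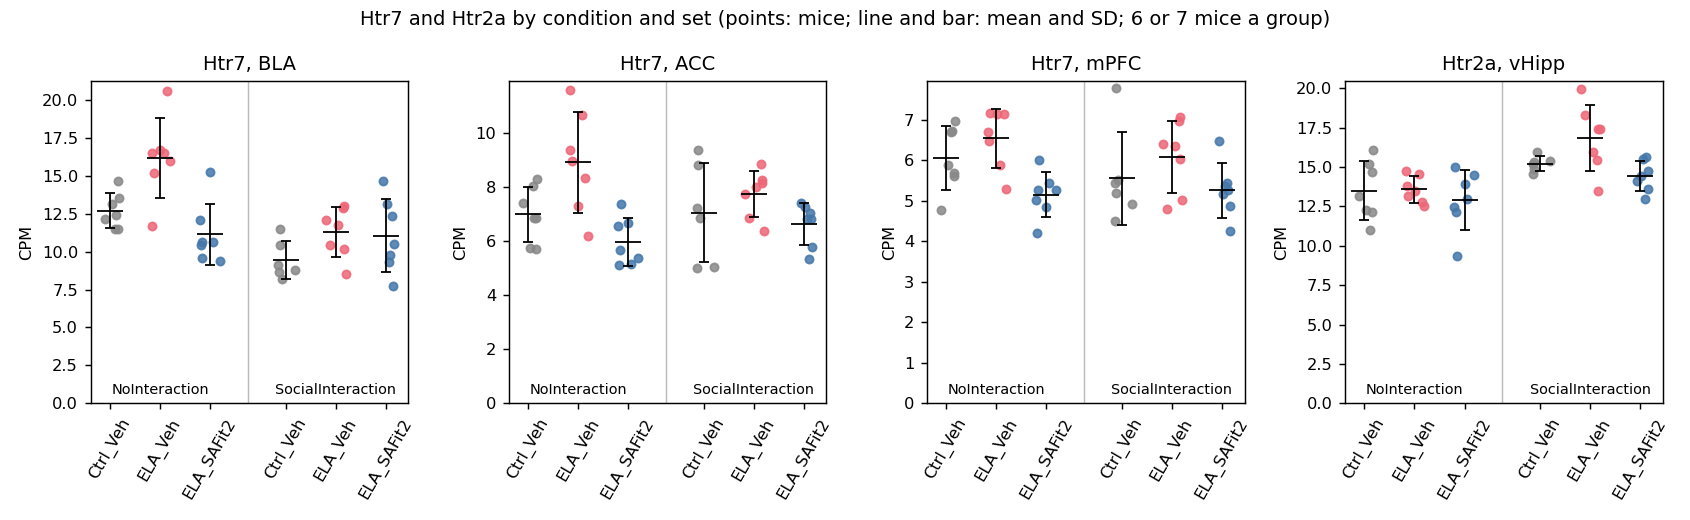
CPM of Htr7 in the BLA, ACC and mPFC and of Htr2a in the vHipp by condition and set (points: mice, bars: mean and SD of 6 or 7 mice, axes from 0). In the BLA the NoInteraction ELA_Veh mice, with a median of 16.5 CPM, are the highest group for Htr7, and all groups overlap with a neighbour.

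Rearing and SAFit2 left no receptor past the threshold. Over 3 contrasts of the conditions, taken in each set and over both sets, edgeR called 0 of 540 tests (0.00175% over all genes), with 34 at an unadjusted p under 0.05, and DESeq2 called 0 with 37. The smallest adjusted p was 0.209 with edgeR and 0.0511 with DESeq2. Of the 34, 12 belonged to Htr7. Its 54 tests overlap, since each set enters again in the mean of both sets and the contrasts share mice. The 12 are thus not separate findings. No share over all genes is given for the unadjusted p, so these counts are descriptions. The Nacc tests include the 12 libraries that match another mouse, each of another set, another condition or both. Without them edgeR called 0 of 90 tests in the Nacc (smallest adjusted p = 0.878). Without the mismatched ACC library it called 0 of 90 in the ACC (smallest adjusted p = 0.356). Summed over regions, 0 of 90 tests passed (0.000639% over all genes), with 8 at an unadjusted p under 0.05 by each tool. These sums add the Nacc libraries under their labels. When the Nacc was left out of the sums, edgeR again called 0 of 90, with 11 at an unadjusted p under 0.05.

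The Htr7 values in the ACC were 5.70, 6.86 and 8.31 CPM (lowest, median, highest) in the NoInteraction Ctrl_Veh mice, 6.199, 8.95 and 11.6 in ELA_Veh and 5.10, 5.65 and 7.37 in ELA_SAFit2. In the SocialInteraction mice they were 4.99, 7.04 and 9.37, then 6.38, 7.99 and 8.84, then 5.32, 6.80 and 7.42 CPM. ELA_Veh had the highest median in both sets, and its range overlapped with both other groups. The log2 difference of ELA_SAFit2 against ELA_Veh over both sets was -0.40 (SE 0.0918, unadjusted p = 9.47e-05, adjusted p = 0.209), and that of ELA_Veh against Ctrl_Veh 0.25 (SE 0.0935, adjusted p = 0.816).

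In the BLA the NoInteraction values were 11.5, 12.4 and 14.6 CPM in Ctrl_Veh, 11.7, 16.5 and 20.6 in ELA_Veh and 9.36, 10.6 and 15.2 in ELA_SAFit2. After the encounter they were 8.16, 8.96 and 11.5, then 8.49, 11.8 and 12.999, then 7.72, 10.5 and 14.6 CPM. The contrast of ELA_SAFit2 with ELA_Veh was -0.53 in the NoInteraction mice (SE 0.120, adjusted p = 0.741) and -0.03 in the SocialInteraction mice. A test of the difference between the sets gave 0.50 (unadjusted p = 0.00571, adjusted p = 0.977), so the sets were not told apart. Median choroid plexus sums of these groups ran from 518 to 3771 CPM, and their part was not tested.

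In the mPFC the medians of Htr7 were 5.90, 6.69 and 5.27 CPM in the NoInteraction Ctrl_Veh, ELA_Veh and ELA_SAFit2 mice and 5.32, 6.34 and 5.26 CPM in the SocialInteraction mice. ELA_SAFit2 against ELA_Veh gave -0.28 over both sets (SE 0.0759, adjusted p = 0.424). ELA_SAFit2 against ELA_Veh and ELA_Veh against Ctrl_Veh share the ELA_Veh mice, so opposite signs in these 2 contrasts are not independent. With the 6 regions of a mouse summed, Htr7 gave -0.15 for the first (adjusted p = 0.484) and 0.14 for the second (adjusted p = 0.534). These sums include the mismatched Nacc libraries under their labels.

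Among the other receptors, the largest difference over both sets was that of Htr1a in the DMT, where ELA_SAFit2 lay 1.03 log2 units above Ctrl_Veh (SE 0.420, adjusted p = 0.728). The values there ran from 0.0744 to 1.72 CPM in the 13 Ctrl_Veh mice and from 0.294 to 4.74 CPM in the 14 ELA_SAFit2 mice, so the difference rests on low levels that overlap. In the vHipp, where Htr1a is high, the same contrast was 0.26 (SE 0.0898, adjusted p = 0.752). Differences of a condition contrast between the 2 sets passed in 0 of 180 tests (0.00772% over all genes), with 6 at an unadjusted p under 0.05 by each of edgeR and DESeq2.

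**Figure D5:**
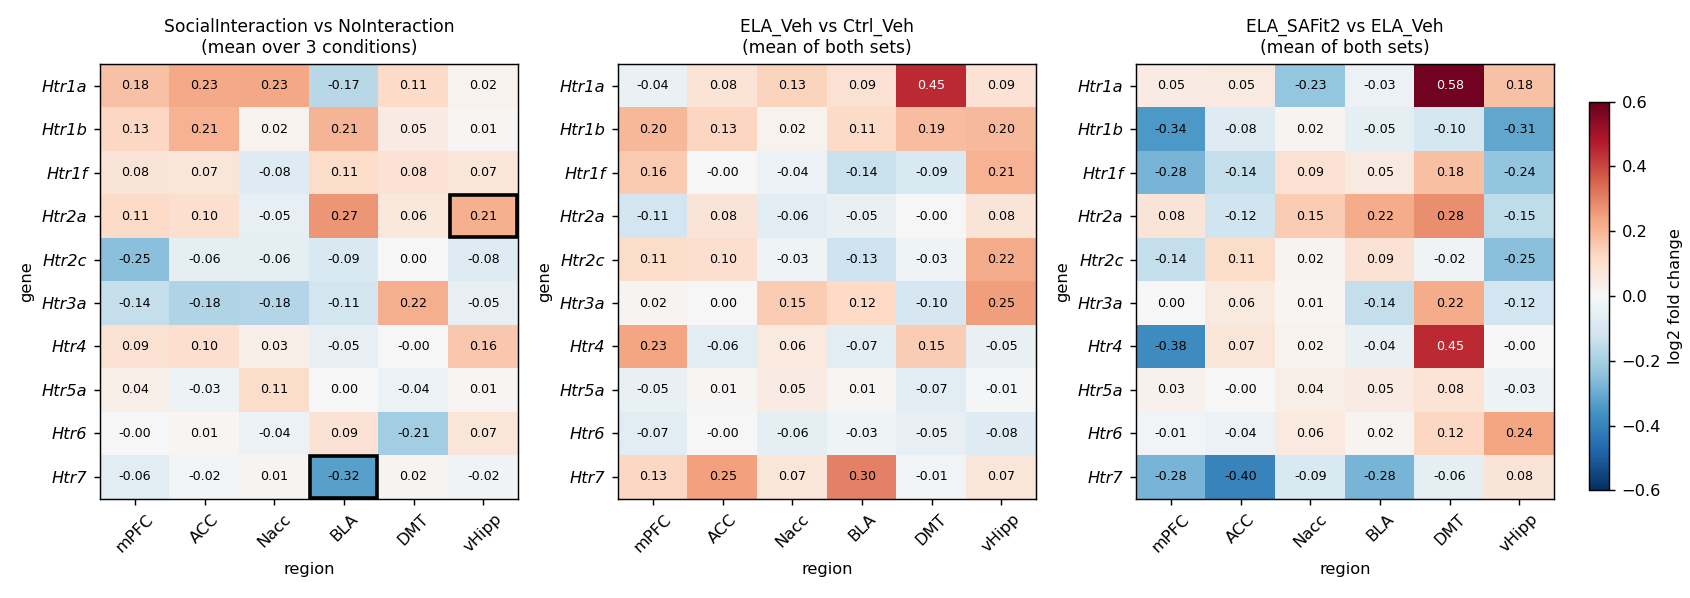
Log2 fold changes of the 10 receptor genes in 6 regions for the response to social interaction, for ELA_Veh against Ctrl_Veh and for ELA_SAFit2 against ELA_Veh (colour and printed value). Black frames mark an adjusted p under 0.05, which 2 cells of the first panel and none of the other panels have, and Htr7 has the deepest blue of the third panel in the ACC at -0.40.

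Genes around the receptors were read from 3 lists. Of 4 further serotonin receptor genes, Htr1d had its highest mean in the Nacc, as Htr1b had, with 12.4 CPM in the Nacc, 8.27 in the BLA and 0.353 in the vHipp. Htr5b averaged 5.72 CPM in the DMT with a range from 0 to 20.7, and Htr2b and Htr3b stayed under 0.2 CPM in every library. Even so, Htr3b passed the count filter of the region comparison and was called higher in the BLA (log2 difference 0.73, SE 0.298, adjusted p = 0.0204) and lower in the DMT (-0.95, SE 0.384, adjusted p = 0.0169), on means of 0.0262 CPM and 0.00734 CPM.

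Of the 10 genes of serotonin synthesis, transport and breakdown, those that define serotonin neurons were close to 0. Slc6a4, the serotonin transporter, Tph2, the synthesizing enzyme of neurons, and Fev, a factor of raphe neurons, averaged at most 0.731 CPM in any region. The breakdown enzymes Maob and Maoa were highest in the DMT, at 103.3 and 58.7 CPM, and the low-affinity transporter Slc29a4 in the vHipp, at 57.3 CPM. After the encounter, 3 of 51 tests over the 6 regions passed (5.88%, beside 2.64% over all genes). The share rests on these 3 calls. In the mPFC 0 of 9 tested genes rose and 1 fell (2.59% of all genes fell there), Slc22a3 (log2 fold change -0.56, SE 0.132, adjusted p = 0.00577), a transporter that clears monoamines outside synapses. In the ACC 0 of 9 rose and 2 fell (1.74% of all genes fell there), Maoa with a log2 fold change of -0.10 (adjusted p = 0.0451) and Maob with -0.09 (adjusted p = 0.0425), and 0 passed in the other 4 regions.

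Of 22 genes of receptor signalling and partners, Adcy5 and Gnal, which carry Gs-coupled signals in striatal neurons, were highest in the Nacc, at 1102 and 848 CPM. Adarb1, an enzyme that edits RNA, including that of Htr2c, was highest in the DMT at 1168 CPM beside 194 CPM in the BLA, while Htr2c itself was at the same level in both. Plcb1, a phospholipase downstream of Gq, was lowest in the DMT at 57.4 CPM and lay between 256 and 311 CPM elsewhere. In the social response 2 of 132 tests over the 6 regions passed (1.52%, under the 2.64% over all genes), Kcnj6 in the mPFC (0.16, adjusted p = 0.0220) and Plcb1 in the DMT (0.18, adjusted p = 0.0317), both higher. Summed over regions, Gnai2 was lower, with a log2 fold change of -0.04 (adjusted p = 0.0486), where 8.56% of all genes passed. These sums include the mismatched Nacc libraries under their labels. In the condition contrasts within regions, 0 of 108 tests of the further receptors, 0 of 459 of the synthesis and transport genes and 0 of 1188 of the signalling genes passed edgeR's test.

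Over the libraries of all regions the genes with the most similar log2 CPM reached a Pearson's r of 0.96 for Htr1b (Tmem158) and Htr2a (Gpr26), 0.95 for Htr1a (Dscaml1), Htr3a (Fam131a), Htr5a (Chd5), Htr6 (Dtnb) and Htr7 (Arhgap24), 0.94 for Htr2c (Zcchc12), 0.93 for Htr1f (Atp2b4) and 0.92 for Htr4 (Dcc). These r values describe shared regional levels over 15173 genes searched, and libraries of a mouse are not independent. Once the mean of each region and group was removed, the closest genes were Bcr for Htr1b (0.74), Gfra1 for Htr4 (0.68), Olfm2 for Htr5a (0.68) and Vamp1 for Htr7 (0.66), and Slc32a1, the vesicular GABA transporter, for Htr1a (0.55). Among the 10 receptors themselves, Htr1a and Htr3a were most alike over the libraries (r = 0.89) and Htr1a and Htr7 most opposed (-0.88). After removal of the means the closest pair was Htr2a and Htr5a (0.40).

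The receptor level of a mouse in 1 region said little of its level in another. The mean correlation of deviations between regions, over 10 pairs of regions without the Nacc, lay between -0.03 for Htr3a and 0.21 for Htr7, with a median of 0.119 over all genes. Htr7 stood at the 74.4th percentile of all genes on this measure and Htr2c at the 8.001th.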

How the data were processed

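Poly-A RNA of 6 regions from 41 mice was sequenced as paired ends from a stranded kit. The authors deposited a table of estimated counts per gene, named as a merged Salmon output and not normalized. The submitters' processing notes name STAR, DESeq2 and GRCm39 without roles or versions. Groups, sets, regions and mouse numbers came from the labels. Estimated counts were rounded to whole numbers (12.12% were not whole). Of 56691 genes, 52073 matched GENCODE M21 and 978 more RefSeq symbols. Gene types, exon lengths and the GRCm38 positions come from these annotations and not from the files' build. The genes fitted were those typed as protein-coding whose counts added up to 100 or more, with reads in 6 libraries or more.

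Within regions, edgeR 4.0.16 (R 4.3.3) fitted the 6 groups with its quasi-likelihood test on TMM-scaled counts, with Benjamini-Hochberg adjustment over all genes and a threshold of 0.05. Regions were compared in 1 fit of all libraries with the mouse number as a block, since the 6 regions of a mouse share an animal. That fit used edgeR's newer dispersion method (glmQLFit with legacy=FALSE). DESeq2 1.42.0, limma 3.58.1 (voom), other size factors, other filters and fits without doubtful libraries were alternatives, and fits without 1 ACC library, the gap in choroid plexus levels and correlations without mismatched libraries were added to them after the data were seen. Marker scores were means of standardized log2(CPM + 0.1), correlated in Python 3.11.15 with NumPy 2.4.6 and SciPy 1.17.1. The scripts were tested on simulated data. The 10 receptors, the 3 gene lists and the marker lists were chosen with earlier results of these data known. The genes named are the 10 receptors, genes of the lists past the threshold or with the highest regional levels, and for each receptor the genes with the most similar levels. P-values within a region or on summed regions measure the spread between mice, whose litters are not given. Those of the region comparison measure the spread that is left within mice once the mouse block is taken out. Receptor sequences are not analysed here.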

Additional observations from a re-analysis of the deposited data

Results flagged for a closer look

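In 3 of 36 groups of the receptor results that the text turns on, 1 mouse stood apart from the rest of its group (Dixon's test), where chance flags about 1 in 20 groups. Htr7 in the mPFC was 7.78 CPM in 1 of 6 SocialInteraction Ctrl_Veh mice, with the next at 5.52 CPM and 0.690 of the group's range between them. Htr4 in the vHipp was 18.7 CPM in 1 of 7 SocialInteraction ELA_SAFit2 mice, with the next at 16.0 CPM (0.619 of the range). Htr1a in the ACC was 29.9 CPM in 1 of 7 NoInteraction ELA_SAFit2 mice, with the next at 25.3 CPM (0.571 of the range).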

How the results depend on the processing

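Of 429 alternative values, 223 of the values that answer a comparison and 173 of the single genes or correlations kept their direction and their side of the threshold, or for counts stayed within 1.5 times. In the region comparison the fit without the mouse block called 131 of 150 pairs of regions, as with it, 82 of them past the fold rule, and it changed no call of 210. Limma-voom with the block called 133 pairs. Each set alone kept 182 of the 185 calls. No paired analysis was possible for the condition and social contrasts, because the groups share no mouse. The receptors called in the social response numbered 4 with DESeq2 and 0 in Ctrl_Veh, 0 in ELA_Veh and 0 in ELA_SAFit2 alone, beside 2. Over all genes that response called 4 genes in the Nacc without the mismatched libraries, beside 0, and with DESeq2 462 BLA, 381 DMT and 308 vHipp genes, beside 239, 253 and 190. Marker correlations past the threshold numbered 61 in the NoInteraction and 29 in the SocialInteraction mice alone, beside 94, with fewer mice in each. Of the correlations past the threshold, that of Htr7 with striatal markers in the Nacc changed sign in the SocialInteraction mice, from -0.45 to 0.05. Of the 21 past it in the Nacc, 14 remained in the libraries that match their mouse, and 17 of 17 remained in the ACC. Receptor and markers come from the same library, so a wrong mouse label does not change r over a whole region. The fits on matching libraries rest on fewer libraries, which by itself can lower the number past the threshold. The sign of r also turned for Htr7 in the BLA, with choroid plexus markers to 0.66 in the 9 libraries under the gap, and with striatal markers to 0.000605 without the 2 farthest libraries and to 0.29 in the SocialInteraction mice, none past the threshold. Depth limits Htr3a in the DMT, where libraries held 0 to 10 reads.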
